A study of Homo sapiens with 3 samples.

Results

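The miRNA family with the seed of miR-130, miR-301 and miR-454 was examined in RNA recovered with an antibody against Argonaute2 (Ago2), the core protein of the silencing complex that miRNAs guide. Its members were taken by name, as the 5 miRNAs hsa-miR-130a, hsa-miR-130b, hsa-miR-301a, hsa-miR-301b and hsa-miR-454 among the 851 human miRNA names on the array. Hep G2, a human liver cancer cell line, was either left without transfection (non-treated) or given 5 nM of dsRNA that mimics miR-195 or miR-497, and Ago2 was precipitated 24 hours later. One Cy3-labelled array was analysed per group, from 10 ng of Ago2-bound RNA, which gives 3 arrays on 1 slide and no replicate check for any difference below. The groups shared the cell line and the precipitation. No array of cells given a control duplex was analysed here, so the effect of a mimic and that of transfection itself cannot be told apart in a comparison with non-treated cells. How many cultures each array stands for is not given in the sources used here, and although the methods describe a repeated analysis of every sample, a single array per group was used.

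A miRNA recognises its targets mainly through the seed, bases 2 to 8 of the mature strand, and miRNAs with the same seed can bind overlapping sets of mRNAs. The family carries a seed different from that of the transfected miRNAs, and its members compete with all others for a place in Ago2. miR-130b is known for its role in liver tumor-initiating cells, where it represses TP53INP1. miR-301a is known to repress NKRF, miR-130a to act on the homeobox genes GAX and HOXA5 in endothelial cells, and miR-454 shares a transcript neighbourhood with miR-301a.

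The mature sequences are shown because the family is defined by them. Each is written 5′ to 3′ with the seed in capitals, from RefSeq on GRCh38.p14, in which 4 of the 5 members were matched to the strand now named -3p. hsa-miR-130a was not matched.
hsa-miR-130b: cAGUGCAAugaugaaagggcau
hsa-miR-301a: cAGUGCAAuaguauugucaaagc
hsa-miR-301b: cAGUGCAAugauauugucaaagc
hsa-miR-454: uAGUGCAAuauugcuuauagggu
The 4 sequences shared the seed AGUGCAA, which stood at bases 2 to 8 of 6 of 2370 mature human miRNAs in RefSeq, or 0.253%. The others with it were hsa-miR-3666 and hsa-miR-4295. hsa-miR-130a had no matched entry, so it could not be counted either way. Outside the seed the members diverged to different degrees. Compared base by base from the 5′ end, hsa-miR-301a and hsa-miR-301b were identical at 21 of 23 bases and differed only at bases 10 and 11, while hsa-miR-130b and hsa-miR-454 were identical at 10 of 22. Signal from hsa-miR-301a and hsa-miR-301b may be shared between their probes, which was not tested, and the split between them is uncertain.

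The genes formed pairs in the genome. MIR301B (chr22:21652981-21653058) and MIR130B (chr22:21653304-21653385) lay 245 bases apart on the plus strand within the span of LOC107985532. MIR454 (chr17:59137758-59137872) and MIR301A (chr17:59151136-59151221) lay 13263 bases apart on the minus strand, both within the span of the protein-coding gene SKA2. MIR130A (chr11:57641198-57641286) stood alone within MIR130AHG. These coordinates are those of GRCh38.p14, whereas the scanner files name hg19.

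The arrays were read as spot intensity. Each family member had 16 spots, spread over 2 probes, or over 4 probes for hsa-miR-301b, and 68 to 75 of the 80 family spots per array were kept after outlier spots were left out. Human miRNAs well above background numbered 121 to 168 per array. Of the non-control spots, 14.9%, 13.5% and 9.96% were well above background on the non-treated, miR-195 and miR-497 arrays. A 75th percentile over every non-control probe, given below as an alternative scaling, therefore falls among probes near background. The miR-497 array was dim throughout, with a 75th percentile of 263 intensity units over the 183 shared detected probes against 827 on the non-treated and 778 on the miR-195 array, so that signals are given both as read and after division by this percentile. Of the liver miRNAs, hsa-miR-192, hsa-miR-194 and hsa-miR-215 were well above background on every array, whereas hsa-miR-122, the most abundant miRNA of normal hepatocytes, was not on any. Of 12 markers of blood, endothelium, muscle, fibroblasts and neurons, 2 were well above background, hsa-miR-142-3p and hsa-miR-142-5p, on all 3 arrays. The summed signal of this pair was 1712, 1426 and 453.9 units for non-treated, miR-195 and miR-497, while the other blood markers hsa-miR-451 and hsa-miR-223 were not well above background on any. Their part in the results was not tested.

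All 5 members were well above background on all 3 arrays, and together they gave 1.39% of the signal of detected human miRNAs in non-treated cells. The family sum was 3309 ± 162 intensity units without transfection, 3625 ± 206 after miR-195 and 1302 ± 54.0 after miR-497 (± spot SD, which comes from the spread between spots of 1 array and holds nothing of the variation between cultures or precipitations). The spot SD is that of single spots, combined over probes, and not the error of their mean. The percentage of the family in the human signal was 1.38 after miR-195 and 1.22 after miR-497. Without the transfected miRNAs and their passenger strands, the percentages were 1.39, 1.69 and 1.32 in the order non-treated, miR-195, miR-497. The largest of these departures from the non-treated array was that on the miR-195 array. In such bulk material fewer cells holding a miRNA and less of it per cell cannot be told apart.

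hsa-miR-130b was the brightest member. Its signal was 2436 units in non-treated cells, 2624 after miR-195 and 988 after miR-497, with spot SDs of 161, 203 and 50.8. It ranked 19 of 168 detected human miRNAs in non-treated cells, 18 of 153 after miR-195 and 16 of 121 after miR-497, and was thus among the brighter miRNAs on each array. hsa-miR-301a was next, at 571 ± 9.02, 665 ± 27.7 and 197 ± 15.6 units in the same order of arrays. It ranked 47, 44 and 49, above the middle of the detected miRNAs on each array.

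The other members were dim. hsa-miR-301b gave 142 ± 9.56, 156 ± 7.82 and 54.3 ± 8.50 units on the non-treated, miR-195 and miR-497 arrays. Of its 4 probes, 1 passed the background limit on all 3 arrays and 2 on none, so that most of its signal came from a single probe. hsa-miR-454 gave 89.4 ± 9.53, 102 ± 9.58 and 34.3 ± 3.95 units, again with 1 probe of 2 well above background. The dimmest member was hsa-miR-130a, with 70.8 ± 6.99, 78.8 ± 3.62 and 28.7 ± 3.37 units. On the miR-497 array it ranked 115 of 121, close to the lowest detected signal of 19.1 units, and 1 of its 2 probes was no longer well above background. The order of the signals, from hsa-miR-130b through hsa-miR-301a, hsa-miR-301b and hsa-miR-454 to hsa-miR-130a, was the same on all 3 arrays. Because probes differ in affinity, it orders signals and not numbers of molecules.

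**Figure D1:**
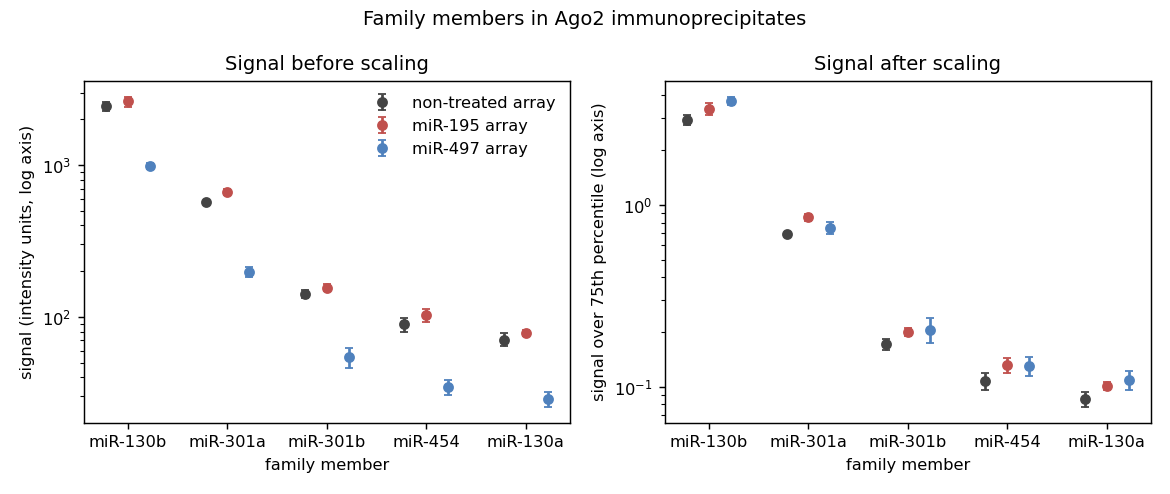
Signal of the 5 family members on each array, as read in intensity units (left) and after scaling to the 75th percentile (right), both on log axes. Points are sums over the probes of a miRNA and bars are ± spot SD. Before scaling every member was lowest on the miR-497 array, and after this scaling every member was lowest on the non-treated array, an order that did not hold with the percentile taken over all non-control probes.

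Before scaling, the 3 arrays stood in the same order for every member, with the miR-195 array highest and the miR-497 array lowest. The gap that separated miR-195 from non-treated was under the sum of the spot SDs for hsa-miR-130a, hsa-miR-130b, hsa-miR-301b and hsa-miR-454, and over it for hsa-miR-301a. The composition of the family was examined next, since a share within an array does not depend on the scaling between arrays.

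The composition differed by at most 3.46 percentage points between arrays. hsa-miR-130b made up 73.6% ± 1.35 of the summed family signal in non-treated cells, 72.4% ± 1.67 after miR-195 and 75.8% ± 1.43 after miR-497 (± propagated spot SD). The share of hsa-miR-301a was 17.3% ± 0.875, 18.3% ± 1.20 and 15.2% ± 1.18. The pair thus differed in opposite directions between arrays. Between the transfected arrays the share of hsa-miR-301a was 3.17 points lower on the miR-497 array, 1.88 times the combined spot SD, and that of hsa-miR-130b was 3.46 points higher, 1.57 times its SD. The shares of the dim members differed by less than 0.5 times the spot SD between any pair of arrays. hsa-miR-301b stood at 4.28%, 4.29% and 4.17%, hsa-miR-454 at 2.70%, 2.83% and 2.63%, and hsa-miR-130a at 2.14%, 2.17% and 2.21%. With the normexp background correction hsa-miR-130b stood at 62.6%, 62.4% and 53.9%, lowest instead of highest on the miR-497 array. The shares of the dim members were then highest there, at 9.84%, 9.46% and 15.1% for hsa-miR-301b, 5.43%, 5.20% and 7.72% for hsa-miR-454, and 4.86%, 4.73% and 7.49% for hsa-miR-130a. Normexp added an offset of 50 to every spot, which enters each probe and raises dim signals relatively most. hsa-miR-301b has 4 probes and the other members 2, so the offset adds most to hsa-miR-301b. The part of the offset in these shares was not tested. With software totals, which for hsa-miR-454 include an excess described below, its share was 3.27%, 3.37% and 5.43%. By locus, the MIR130B and MIR301B pair gave 77.9% ± 1.14 of the family signal in non-treated cells, the MIR301A and MIR454 pair 20.0% ± 1.03 and MIR130A 2.14% ± 0.232. After miR-497 the shares of the pairs were 80.0% ± 1.28 and 17.8% ± 1.24, and after miR-195 they were 76.7% ± 1.45 and 21.2% ± 1.35.

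**Figure D2:**
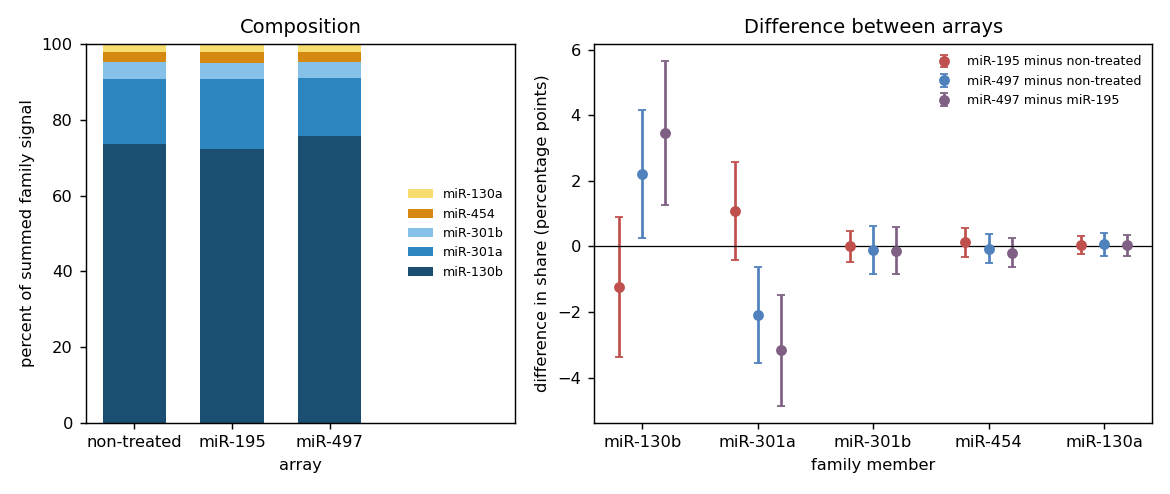
Share of each member in the summed family signal on each array, in percent (left), and the difference in share between arrays in percentage points with the combined spot SD as bars (right). hsa-miR-130b held 72.4% to 75.8% on every array, and the widest differences, for hsa-miR-130b and hsa-miR-301a, were between the transfected arrays.

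The miR-195 array was compared with the non-treated array first. After scaling, all 5 members lay above the non-treated array by 0.19 to 0.31 log2 units, or 1.14-fold to 1.24-fold, but with a percentile over every non-control probe all 5 lay below it, at -0.23 to -0.34. Scaled differences above 0 made up 49% of the 147 human miRNAs compared, whose median was -0.01. hsa-miR-301a differed by 0.31 (spot SD 0.064), with 89.8% of the miRNAs at a lower value, hsa-miR-454 by 0.28 (0.20), hsa-miR-130a by 0.24 (0.16), hsa-miR-301b by 0.22 (0.12) and hsa-miR-130b by 0.19 (0.15). Only hsa-miR-301a exceeded 2 times its spot SD. None of the 5 reached 2-fold, which 2.72% of the 147 did upward and 0.68% downward, or 3.4% in either direction. The family sum was 0.22 higher (spot SD 0.11) and stood at -0.32 with that other percentile. Without scaling the members were above the non-treated array by 0.11 to 0.22.

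The probes of a member did not always move alike. Of 8 family probes well above background on both arrays, 7 were higher on the miR-195 array and 1 was lower. The brighter probe of hsa-miR-130b was higher by 0.27 (spot SD 0.18) while its other probe was at -0.03 (0.24). Both probes of hsa-miR-301a were higher, by 0.32 (0.070) and 0.25 (0.15).

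The comparison of miR-497 with non-treated rested on a dimmer readout. As read, every member was dimmer than on the non-treated array, at differences of -1.30 to -1.53 log2 units, compared with a median of -1.62 over the 118 human miRNAs measured on both arrays. After scaling, all 5 were above the non-treated array, by 0.12 to 0.35, but with a percentile over every non-control probe all 5 were below it, at -1.03 to -1.26. Of the 118 miRNAs 55.1% were above 0 under the first scaling, and their median was 0.03. hsa-miR-130a differed by 0.35 (spot SD 0.22), hsa-miR-130b by 0.35 (0.12), hsa-miR-454 by 0.27 (0.23), hsa-miR-301b by 0.27 (0.25) and hsa-miR-301a by 0.12 (0.12). hsa-miR-130b was the only member beyond 2 times its spot SD. No member reached 2-fold under the first scaling, which 3.39% of the miRNAs did upward and 0% downward. Without scaling and with a percentile over every non-control probe all 5 passed 2-fold downward, as did 4 in the deposited table. Of all 118 miRNAs, 113 passed 2-fold downward without scaling and 110 with that percentile, so these calls do not set the family apart. The family sum was 0.31 higher (spot SD 0.093) after scaling and stood at -1.35 without it. As a percentage of human signal without the transfected miRNAs and their passenger strands, the family was instead lower on the miR-497 array. It stood there at 1.32 (spot SD 0.055), against 1.39 (0.068) on the non-treated array. Of 7 family probes measured on both arrays 6 were higher after scaling, and the dimmer probe of hsa-miR-301a was lower, at -0.11 (0.15). Both comparisons share the non-treated array, so their like signs are not independent.

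The miR-497 and miR-195 arrays, both of transfected cells, were then compared. After scaling 3 of the 5 members were above 0, as were 58.1% of 117 miRNAs, but none of the 5 was with a percentile over every non-control probe. The differences were 0.15 for hsa-miR-130b (spot SD 0.13), 0.11 for hsa-miR-130a (0.18), 0.04 for hsa-miR-301b (0.24), -0.01 for hsa-miR-454 (0.21) and -0.19 for hsa-miR-301a (0.13). hsa-miR-301a was the lowest of the 5, with 13.7% of 117 miRNAs at a lower value, and both of its probes were lower on the miR-497 array, at -0.16 (0.15) and -0.36 (0.14), while with normexp it stood at 0.086. No member was beyond 2 times its spot SD. None reached 2-fold after scaling, which 1.71% of miRNAs did upward and 0% downward. Without scaling all 5 members passed 2-fold downward, at -1.41 to -1.75, as did 114 of the 117 miRNAs. Of the 5 members, 4 passed it in the deposited table, and 1 with a percentile over every non-control probe, hsa-miR-301a at -1.03. With that percentile 17 of the 117 miRNAs passed 2-fold downward. The family sum differed by 0.09 (spot SD 0.10), within its spot SD.

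**Figure D3:**
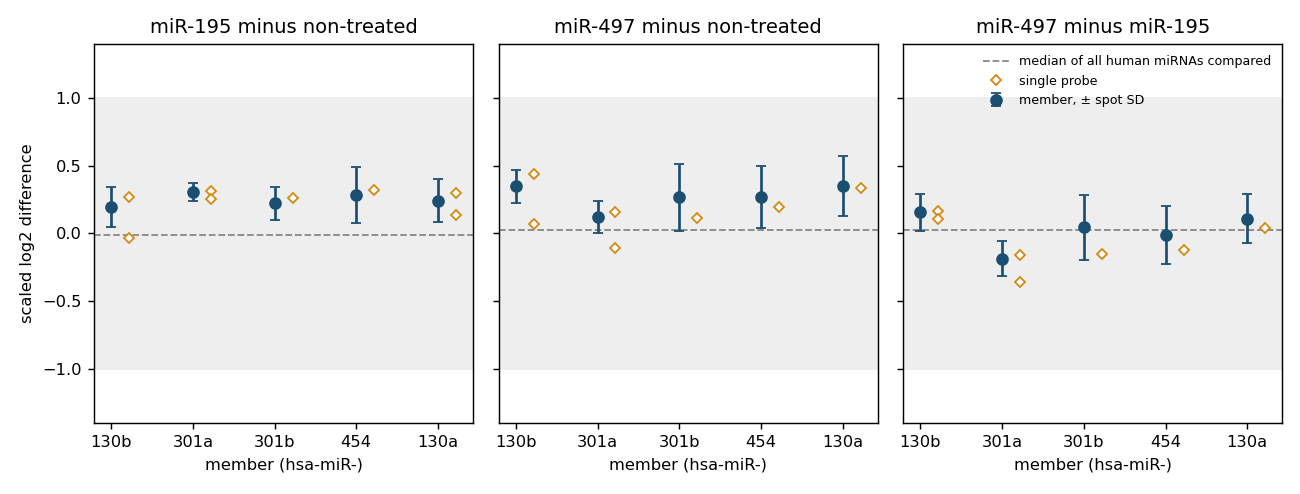
Scaled log2 difference of each member for the 3 comparisons between arrays. Filled points are members with ± spot SD, open diamonds are single probes well above background on both arrays, the dashed line is the median of all human miRNAs compared, and the grey band spans differences under 2-fold. All members and probes lay inside the band under this scaling.

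After scaling, the levels of hsa-miR-130a, hsa-miR-130b and hsa-miR-301b ran from the non-treated array through the miR-195 array to the miR-497 array, whereas those of hsa-miR-301a and hsa-miR-454 were highest on the miR-195 array, and with a percentile over every non-control probe the non-treated array was instead highest for all 5. The neighbours miR-195 and miR-497 differed by less than the spot SD for hsa-miR-130a, hsa-miR-301b and hsa-miR-454, but with normexp these 3 stood higher on the miR-497 array, by 0.95, 0.96 and 0.86. These 3 are the dim members, whose signals the normexp offset raises relatively most. With software totals hsa-miR-130a stood at -0.50 and hsa-miR-454 at 0.79.

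The passenger strands of the family were examined for 3 members. No entry named hsa-miR-301a* or hsa-miR-301b* was found on the array. On no array was hsa-miR-130a* or hsa-miR-130b* well above background. hsa-miR-454* gave 29.4 units on the non-treated array, with 1 of 4 probes well above background, and 41.7 and 15.2 units on the miR-195 and miR-497 arrays with none. No fold can be given for any of the 3.

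Other miRNAs carry part of the family seed shifted by 1 base, and they are shown with their own seeds in capitals so that the shift can be seen.
hsa-miR-19b: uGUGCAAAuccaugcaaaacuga
hsa-miR-148a: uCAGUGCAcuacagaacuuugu
hsa-miR-152: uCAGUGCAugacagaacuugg
hsa-miR-19a and hsa-miR-19b hold GUGCAA at bases 2 to 7, as 2 of 2370 mature miRNAs do (0.0844%). The mature hsa-miR-19b has the same sequence from MIR19B1 on chromosome 13 and MIR19B2 on chromosome X. hsa-miR-148a, hsa-miR-148b and hsa-miR-152 hold AGUGCA at bases 3 to 8, as 7 do (0.295%). Against the non-treated array 4 of these 5 relatives were measured after miR-195 and 3 after miR-497, and none reached 2-fold. Their medians after scaling were -0.07 and 0.11, compared with 0.24 and 0.27 for the family, and without scaling -0.15 and -1.54 compared with 0.15 and -1.38. hsa-miR-19b, at 16778 units in non-treated cells and rank 3, differed by -0.06 (spot SD 0.16) after miR-195 and 0.39 (0.22) after miR-497. hsa-miR-19a differed by -0.16 (0.11) and 0.11 (0.17), and hsa-miR-148b by -0.07 (0.11) and -0.06 (0.34). hsa-miR-148a, at 0.15 (0.12) after miR-195, was not well above background on the miR-497 array, and hsa-miR-152 was not on any array. The difference between the lists was not tested.

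Likeness to the family sum was measured as the distance between the pairs of scaled differences from the non-treated array, over 109 other human miRNAs detected on all 3 arrays. The closest were hsa-miR-215, at 0.20 (spot SD 0.062) and 0.31 (0.12), hsa-miR-16, which shares the seed of the transfected miRNAs, at 0.25 (0.13) and 0.32 (0.18), and hsa-miR-29c, at 0.26 (0.12) and 0.27 (0.14). Their distances of 0.016, 0.035 and 0.059 log2 units were smaller than these spot SDs, and 3 arrays limit what such a likeness can show.

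The deposited table of normalized log2 values gave another picture of hsa-miR-301b. There hsa-miR-301b stood at 8.38, 8.58 and 6.86 on the non-treated, miR-195 and miR-497 arrays, above hsa-miR-301a at 8.21, 8.42 and 6.71. The linear totals behind these values were 334, 382 and 116 units for hsa-miR-301b, and its own significant probes accounted for 37.3, 40.3 and 11.1 units of them. On each array the excess equalled the total of hsa-miR-301a, 296, 342 and 105 units, within 0.01 units. Without the excess, hsa-miR-301b lay below hsa-miR-301a on every array.

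hsa-miR-454 held an excess as well. Its totals of 65.4, 73.7 and 43.4 units included 41.6, 48.4 and 15.5 units from its own significant probe, and the excess equalled the total of hsa-miR-452 for non-treated and for miR-195 and that of hsa-miR-429 on the miR-497 array. The total of hsa-miR-454* in turn held that of hsa-miR-454, with 69.8 units in non-treated cells, 4.45 of them from its own significant probe. The totals of hsa-miR-130a, hsa-miR-130b and hsa-miR-301a had no such excess. In the shares computed from the totals, hsa-miR-130b held 61.7% to 65.7% and hsa-miR-301b 14.5% to 17.5%.

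**Figure D4:**
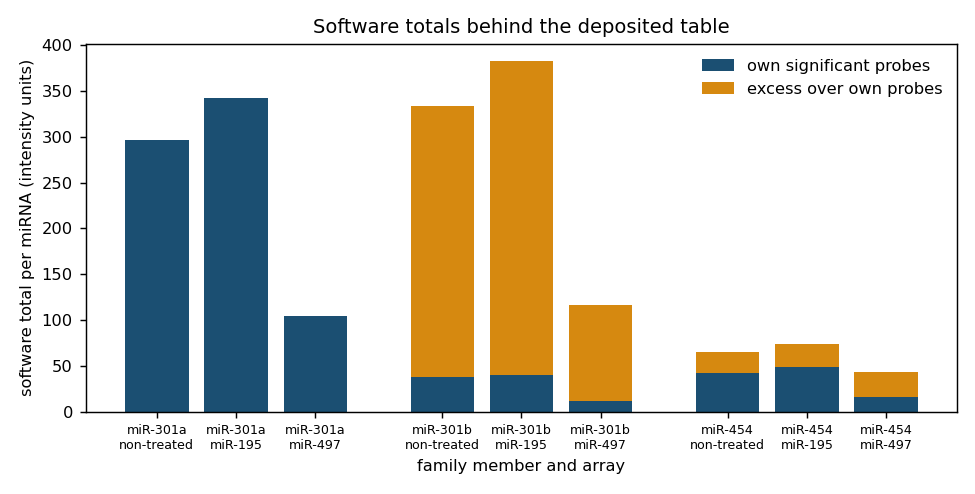
Software total per miRNA in intensity units for hsa-miR-301a, hsa-miR-301b and hsa-miR-454 on each array, split into the part from the significant probes of the miRNA itself and the excess over it. The excess made up 88.8% to 90.4% of the hsa-miR-301b totals and 34.3% to 64.1% of those of hsa-miR-454.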

How the data were processed

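The authors deposited scanner files with spot intensity on a linear scale (Agilent Feature Extraction 10.7.1.1, background subtracted, no scaling between arrays) and a table of log2 values from GeneSpring, which for the family equalled the log2 of the software totals with a floor of 1. Control spots were left out. The processed signal was averaged over the unflagged spots of a probe, summed over the probes of a miRNA and divided by the 75th percentile of the 183 probes well above background on all 3 arrays. A probe was well above background when over 50% of its spots were flagged so, and a miRNA when 1 probe was. Groups came from the sample labels. With 1 array per group, no test was run; slide and scan were shared by all arrays. Differences are described against 2-fold and the spot SD. The steps were tested on simulated data. Software was Python 3.11.15 with numpy 2.4.6 and pandas 2.3.3, and limma 3.58.1 for normexp with an offset of 50 on median pixel signals. The members and lists (passenger strands, shifted seed relatives, markers) were chosen with earlier results of these data known, and genes were named by list, with the 3 closest miRNAs added by distance. Alternatives covered scaling, background, probe summary, spots, detection, denominators, threshold, dim filter and the deposited table.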

Additional observations from a re-analysis of the deposited data

How the results depend on the processing

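The number of arrays limits all values, and signals near background limit hsa-miR-130a, hsa-miR-301b and hsa-miR-454 most. No paired analysis was possible because each group held 1 array. The sum of software probe totals was chosen after the data were seen. Over the alternatives, 51 of 102 values for family sums, family percentages and counts stayed within the spot SD or 1.5 times, and 51 moved. Among differences of single members 138 of 193 stayed and among shares 48 of 120. The deposited table repeated the shares of the software totals, so the same values enter the 120 more than once. The causes of the moves were not tested.

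Family sums are given in the order miR-195 minus non-treated, miR-497 minus non-treated, miR-497 minus miR-195, and counts as at least 2-fold higher and lower. With the 75th percentile of every non-control probe the sums were -0.32, -1.08 and -0.76 and the counts 1 and 9, 1 and 110, and 0 and 17. Without scaling the latter sums were -1.35 and -1.48 and the counts 0 and 113, and 0 and 114. The deposited table, also unscaled, gave -1.32 and -1.46, and median scaling 0.41 and 0.21. Quantile normalization gave 0.097 and 0.11 for the sums against non-treated, 2 lower on the miR-195 array, 2 higher on the miR-497 array and 1 and 1 between them. With normexp the sums on the miR-497 array were 0.47 and 0.29, the family percentages 1.535, 1.52 and 1.66, and the counts 2 and 0 for miR-195, 10 higher for miR-497 and 7 higher between them. With detection required of every spot, the first sum was 0.34. Software totals gave family percentages of 1.28 on the non-treated and 0.921 on the miR-497 array, and 14, 21 and 17 higher. Without the transfected duplexes the percentages were 1.69 and 1.32, and over miRNAs detected on all arrays 1.32 on the miR-497 array. At 1.5-fold 6 and 2 miRNAs were lower in the comparisons with non-treated cells. Without a filter on dim miRNAs the counts were 87 and 30, 167 and 25, and 132 and 43.

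The share of hsa-miR-130b was 53.9% to 62.6% with normexp and 68.0% to 72.4% as a mean over shared probes, and it stayed the largest under each alternative. The share of hsa-miR-301b was 9.46% to 15.1% with normexp, 14.5% to 17.5% with software totals and in the deposited table, and 2.13% to 2.19% with summed probe totals. Against non-treated, on the miR-497 array 2 members passed 2-fold upward with normexp, and 1, hsa-miR-454, with software totals. Of all 118 miRNAs compared, 10 did so with normexp and 21 with software totals. The software total of hsa-miR-454 held the excess described above. All 5 members passed 2-fold downward there without scaling and with a percentile over every non-control probe, and 4 in the deposited table. Over all 118 miRNAs, 113 did so without scaling and 110 with that percentile. Quantile normalization put hsa-miR-301a below 0 there, at -0.17, and software totals hsa-miR-130a, at -0.27.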
